A study of Mus musculus with 70 samples.

Results

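Expression of 6 genes for leukotriene and prostaglandin receptors was followed in regulatory T cells (Tregs) sorted from 6 mouse tissues. The genes were Ltb4r1, Ltb4r2, Ptger2, Ptger4, Ptgir and Ptgdr2, taken as a list of symbols and matched to 6 of the 53465 gene IDs in the count table. They are a named list that was chosen from earlier results of these data, with their levels and fold changes in view, so the values below are a description. Whether a receptor value met the thresholds used below is part of this description and is not independent evidence. Of the 6 genes, 4 passed the filter on low counts, which asked for at least 1 CPM (counts per 1000000 counts of a library) in at least 10% of libraries. Ltb4r2 and Ptgdr2 did not pass it and are described by their counts.

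All libraries came from 5 male mice carrying the allele Foxp3tm4(YFP/icre)Ayr, aged 16.6, 17.1, 17.4, 18.1 and 18.6 weeks and numbered mouse 1 to 5 here. In these mice a fusion of yellow fluorescent protein and Cre recombinase is made from the Foxp3 locus, so every group carried this allele and no group lacked it. ST2+ CD44hi and ST2- CD44hi Tregs were sorted from blood, spleen, lungs, visceral adipose tissue (VAT), colon and back skin, and ST2- CD44lo CD62L+ Tregs from spleen and lungs, which makes 14 groups. ST2 is the IL-33 receptor, CD44hi marks effector Tregs and CD44lo CD62L+ marks central Tregs. Each mouse gave a library to every group, and most libraries came from 220 cells, with as few as 55 in blood ST2+, 166 in blood ST2- and 93 in VAT ST2-. The sort took live CD45.2+ CD4+ YFP+ cells that lacked CD8 and CD11b. By the study's methods, lungs, VAT, colon and skin were digested with collagenase, longest for skin, and blood and spleen were not. CD4+ T cells were enriched before the sort for spleen and lungs only. In RNA of pooled cells, fewer cells of a type and less RNA per cell cannot be told apart.

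Leukotrienes and prostaglandins are lipid mediators made from arachidonic acid, and they act through G protein-coupled receptors on the cell surface. Leukotriene B4 binds the receptors of Ltb4r1 (BLT1, high affinity, a chemoattractant receptor) and Ltb4r2 (BLT2, low affinity). Prostaglandin E2 binds the receptors of Ptger2 (EP2) and Ptger4 (EP4) and prostacyclin that of Ptgir (IP), and these receptors couple to Gs and raise cyclic AMP. Prostaglandin D2 binds the receptor of Ptgdr2 (CRTH2), which couples to Gi and attracts T helper 2 cells, eosinophils and basophils.

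On the GRCm38 assembly, Ltb4r1 lies at chr14:55765962-55768494 and Ltb4r2 at chr14:55761428-55765138, both on the plus strand and 823 bases apart. Ptger2 is at chr14:44988195-45003820 (plus), Ptger4 at chr15:5206661-5244187 (minus), Ptgir at chr7:16906490-16910905 (plus) and Ptgdr2 at chr19:10937160-10942511 (plus). The exons of Ltb4r1, Ltb4r2 and Ptgir overlap no other annotated gene. Other genes on the opposite strand share 4.74% of the exon bases of Ptger2, 16.5% of those of Ptger4 and 38.99% of those of Ptgdr2. Whether the counting used strand is not given in the sources used here, so reads of these pairs may not be told apart.

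The 250 bases before the RefSeq transcription start are shown for Ltb4r1, Ptger2 and Ptgir, the 3 receptors with at least 1 tissue past the thresholds used below between ST2+ and ST2- Tregs. The sequences are from RefSeq (GRCm38.p6), run 5′ to 3′ on the gene's strand, and span chr14:55765712-55765961, chr14:44987861-44988110 and chr7:16906240-16906489 in the order printed.
Ltb4r1: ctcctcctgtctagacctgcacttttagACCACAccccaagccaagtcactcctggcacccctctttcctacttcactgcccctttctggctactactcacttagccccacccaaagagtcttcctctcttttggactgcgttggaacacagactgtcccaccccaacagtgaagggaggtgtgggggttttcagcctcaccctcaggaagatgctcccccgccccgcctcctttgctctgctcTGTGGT
Ptger2: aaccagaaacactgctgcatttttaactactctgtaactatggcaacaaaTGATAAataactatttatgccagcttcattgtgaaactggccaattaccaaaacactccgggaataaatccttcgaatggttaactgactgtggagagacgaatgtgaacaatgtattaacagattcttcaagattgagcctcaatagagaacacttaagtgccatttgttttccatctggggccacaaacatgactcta
Ptgir: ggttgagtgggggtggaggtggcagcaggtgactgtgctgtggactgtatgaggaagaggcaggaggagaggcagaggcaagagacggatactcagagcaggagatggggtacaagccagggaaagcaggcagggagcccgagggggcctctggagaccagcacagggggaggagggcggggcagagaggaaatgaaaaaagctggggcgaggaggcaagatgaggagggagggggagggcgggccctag
Capitals mark matches, on either strand, to the letters searched. RUNX was searched as TGTGGT, AP-1 as TGANTCA and CRE as TGACGTCA. GATA was searched as AGATAA and AGATAG and also as TGATAA and TGATAG, and NF-kB by its consensus. The Ltb4r1 window held 2 RUNX matches, and 14.05% of 32851 promoters held at least 1. The Ptger2 window held 1 GATA match, which 26.54% of promoters held, and the windows of Ptgir, Ptger4 and Ptgdr2 held none of the letters searched. The letters of AP-1, CRE and NF-kB were in 6.75%, 1.55% and 4.65% of promoters. A match is a description of the letters and says nothing of binding.

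Of 70 libraries, 67 had more than 1000000 counts and were kept, with 1304560 to 2759926 counts each. The 3 left out were blood ST2+ of mouse 1 and colon ST2+ of mice 2 and 5, so blood ST2+ had 4 libraries, colon ST2+ had 3 and every other group had 5. Il1rl1, the gene of ST2, was at 230.0 to 1614 CPM in the 27 ST2+ libraries, at 0 to 195 CPM in the 30 ST2- CD44hi libraries and at 0 to 4.69 CPM in the 10 CD44lo CD62L+ libraries. Foxp3 was at 105 to 414 CPM in all 67, and all 8 Treg markers examined had counts in every group. Markers of other cells moved with some groups. The 12 macrophage and monocyte markers summed to 1452 to 1698 CPM in colon ST2+ and to at most 249 CPM in every other group. Their median sum was also higher in VAT ST2+ than in VAT ST2-, with overlapping ranges and counts of 10 of the 12 in both, at 80.4 to 249 CPM (median 187 CPM) against 14.6 to 122 CPM (median 61.5 CPM) in VAT ST2-, and in blood the sums were 49.0 to 132 CPM in ST2+ and 10.5 to 88.8 CPM in ST2-. Of the 9 mast cell, basophil and eosinophil markers, 5 had counts in skin ST2+, and they summed to 513 CPM in mouse 4 and to at most 0.853 CPM in the other 4 mice. The 5 platelet markers summed to 222 to 689.8 CPM in blood ST2+ and to 58.2 to 287 CPM in blood ST2-, against at most 94.2 CPM elsewhere. The highest sums of the other lists were 387 CPM for 5 B cell markers and 953 CPM for 8 markers of fibroblasts, endothelium and adipocytes (both colon ST2+), 306 CPM for 6 neutrophil markers (blood ST2-) and 1135 CPM for 8 epithelial markers (skin ST2-). The epithelial sums also stood apart between ST2+ and ST2- Tregs of lungs, at 139.8 to 163 CPM against 40.8 to 99.7 CPM (6 of the 8 with counts in both), and of spleen, at 121 to 203 CPM (4 of 8) against 36.8 to 73.8 CPM (2 of 8). The part of such cells in the results was not tested, beyond leaving out colon ST2+ and skin ST2+ of mouse 4.

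To set genes side by side, CPM were divided by the kb of all annotated exons of each gene, with bases shared with other genes included. Which transcripts of a gene were present was not examined, so the shares depend on this annotated length. In VAT ST2- CD44hi, Ptger4 was at 176 CPM and Ltb4r1 at 109.8 CPM, whereas their mean shares were 23.0% and 60.1% (n = 5). On this scale the receptor transcripts were made up differently in the 14 groups. The 6 genes summed to 394 ± 58.8 CPM per kb in VAT ST2+ (SD, n = 5) and to 187 ± 25.4 in lungs ST2+ (SD, n = 5). The lowest sums were 32.0 ± 8.53 for CD44lo CD62L+ Tregs of lungs and 33.2 ± 9.56 for those of spleen (SD, n = 5 for both). Ltb4r1 made up 89.9% ± 4.82 of the sum in VAT ST2+ (SD, n = 5) and 1.29% ± 1.97 in spleen ST2- CD44hi. In spleen ST2- CD44hi, Ptger2 held 57.7% ± 4.37 and Ptger4 held 37.6% ± 2.69 (SD, n = 5). In both CD44lo CD62L+ groups Ptger4 held the largest share, which was 52.6% ± 8.51 in spleen (SD, n = 5) and 56.0% ± 9.67 in lungs (SD, n = 5). Ptger4 also held the largest share in blood ST2- CD44hi, at 54.4% ± 13.3 (SD, n = 5). The same held for lungs ST2- CD44hi (48.0% ± 11.7) and spleen ST2+ (42.6% ± 7.42, SD, n = 5 for both). Ptgir held its highest share, 15.1% ± 5.06, in spleen CD44lo CD62L+ Tregs (SD, n = 5).

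**Figure D1:**
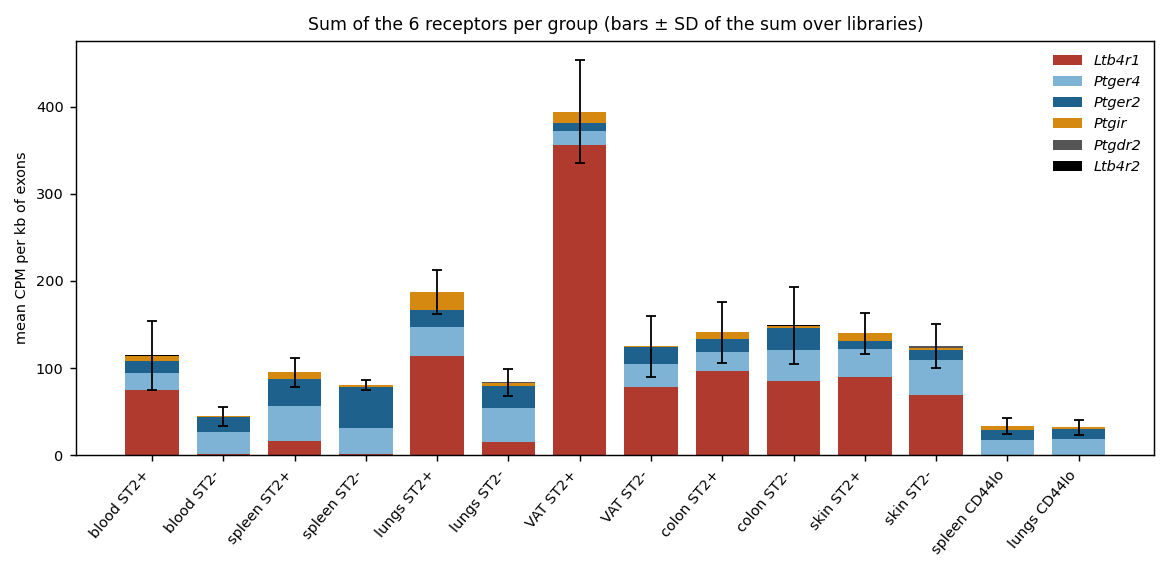
Mean CPM per kb of exons (y axis) of the 6 receptors, stacked, in the 14 groups (x axis), with bars for the SD of the sum over libraries. The VAT ST2+ column, 394 ± 58.8 CPM per kb, stands above all others, and most of it is Ltb4r1.

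Ltb4r1 was highest in VAT ST2+ Tregs, where the 5 libraries, in mouse order, held 415, 487, 483, 433 and 665 CPM. VAT ST2- CD44hi Tregs of the same mice held 38.6, 75.1, 109, 154 and 172 CPM. The groups did not overlap and the ST2+ library was the higher in each of the 5 mice, with 497 ± 99.2 CPM (SD, n = 5) against 109.8 ± 54.9 CPM (SD, n = 5), a log2 fold change of 2.18 (SE 0.46). The macrophage and monocyte markers had the higher median sum in the same VAT group, given above, and their part in this and the other VAT values was not tested. In lungs, ST2+ libraries held 207, 145, 148, 136 and 161 CPM and ST2- CD44hi libraries 39.5, 28.1, 17.7, 14.6 and 8.36 CPM. These groups also stood apart, with a log2 fold change of 2.90 (SE 0.49) and the same direction in 5 of 5 mice.

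In blood, ST2+ libraries of mice 2 to 5 held 82.0, 45.8, 121 and 169.9 CPM, while the 5 ST2- CD44hi libraries held 0, 0, 1.46, 0 and 10.5 CPM. Every blood ST2+ library was above every ST2- library, and the fitted log2 fold change was 5.52 (SE 0.64). Mouse 5 held 18 of the 21 counts of the blood ST2- group, and without this mouse the value was 7.57 (SE 0.75). Median sums of platelet markers and of macrophage and monocyte markers were also higher in blood ST2+ than in blood ST2-, and their part was not tested. In spleen, Ltb4r1 levels were low in both populations, at 7.58, 7.51, 20.3, 52.7 and 25.4 CPM in ST2+ and 0.374, 0, 1.74, 0 and 5.62 CPM in ST2- CD44hi libraries. The groups again did not overlap, with a log2 fold change of 3.75 (SE 0.63). The spleen value was 5.26 (SE 0.71) without mouse 5 and 2.90 (SE 0.70) without mouse 4, and in the latter case the thresholds used below were no longer met. They were also not met when spleen was fitted alone (3.79, SE 0.95).

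In colon and skin the ST2+ and ST2- CD44hi groups overlapped. Colon ST2+ libraries of mice 1, 3 and 4 held 152, 173 and 80.8 CPM and the 5 ST2- libraries 166, 64.5, 136, 69.4 and 159 CPM. Skin ST2+ libraries held 84.0, 113, 161, 116 and 149 CPM and skin ST2- libraries 103, 115, 111, 95.1 and 53.9 CPM. The log2 fold changes were 0.18 (SE 0.51) in colon and 0.40 (SE 0.45) in skin, both smaller than their SE, and ST2+ was the higher in 2 of 3 and 3 of 5 mice. Without skin ST2+ of mouse 4 the skin value was 0.40 (SE 0.48). Colon ST2+ was also the group with the macrophage markers.

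Central Tregs had almost no Ltb4r1. Spleen CD44lo CD62L+ libraries held 0.366, 0, 0, 0 and 0 CPM and lung CD44lo CD62L+ libraries 0, 0, 0, 0.525 and 0 CPM, which was 1 count in each group. In lungs, ST2- CD44hi Tregs were 225-fold above central Tregs, with an exact 95% counting interval of 40.0 to 8947. In spleen the ratio was 20.5-fold with an interval of 3.30 to 849, and 3 of 5 ST2- CD44hi libraries had counts. DESeq2 called the spleen value (3.84, SE 1.11).

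Ordered by mean, the 14 Ltb4r1 levels fell into a few steps. VAT ST2+ came first, and its lowest library was above the highest of the next group, lungs ST2+ (159 ± 27.9 CPM, SD, n = 5). From lungs ST2+ to skin ST2- CD44hi (95.6 ± 24.5 CPM, SD, n = 5), 7 groups followed whose neighbours differed by less than the larger SD. Below them stood spleen ST2+ (22.7 ± 18.5 CPM, SD, n = 5) and lungs ST2- (21.6 ± 12.2 CPM, SD, n = 5). Last came blood ST2-, spleen ST2- and both central groups, whose neighbours also differed by less than the larger SD. Over the 13 pairs of neighbours, the difference was smaller than the larger SD in 10 and the libraries overlapped in 11.

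**Figure D2:**
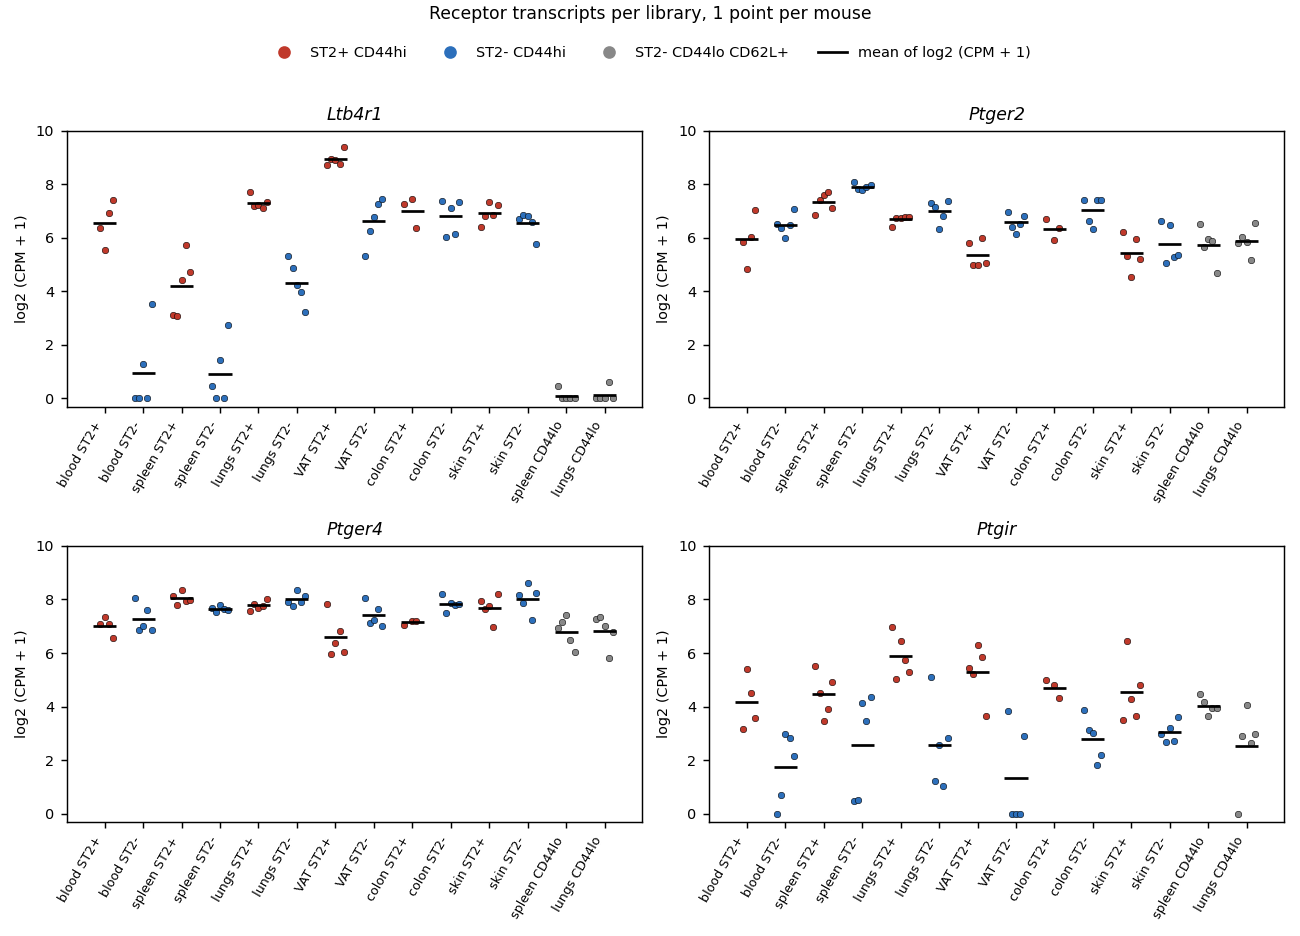
Level of Ltb4r1, Ptger2, Ptger4 and Ptgir, as log2 (CPM + 1) on the y axis, in each library of the 14 groups (x axis), with 1 point per mouse and a line at the mean. Ltb4r1 runs from 0 in central Tregs to 665 CPM in VAT ST2+, whereas Ptger4 stays within 55.7 to 386 CPM in all 67 libraries.

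Ltb4r2, the neighbour of Ltb4r1 on chromosome 14, had 31 counts in all, in 10 of 67 libraries, and its highest value was 3.98 CPM in colon ST2- of mouse 1. Colon ST2- held 9 of these counts in 3 libraries, and blood ST2+ and lungs ST2+ held 6 each in 2 libraries. All 15 spleen libraries had 0 counts.

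Ptger2 showed another order. Its highest levels were in spleen ST2- CD44hi Tregs, with 271, 224, 220.4, 240.4 and 248 CPM, followed by spleen ST2+ with 113, 171, 193, 207 and 139 CPM. These groups did not overlap, and ST2- was the higher in 5 of 5 mice, a log2 fold change (ST2+ minus ST2-) of -0.53 (SE 0.30). The lowest mean was that of VAT ST2+, with 54.7, 30.4, 30.8, 63.4 and 32.6 CPM. VAT ST2- CD44hi libraries held 123, 84.6, 69.3, 91.2 and 113 CPM, all above the ST2+ libraries, with a log2 fold change of -1.18 (SE 0.32). The VAT difference met the thresholds, but did not without mouse 2 (-1.11, SE 0.38) or mouse 5 (-1.04, SE 0.32), in a fit of VAT alone (-1.18, SE 0.29) or with voom and quality weights (-1.14, SE 0.41).

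In the other 4 tissues the Ptger2 libraries of the CD44hi populations overlapped, and the fitted value was below 0 in each. In blood, ST2+ libraries held 56.9, 27.6, 65.0 and 131 CPM against 91.3, 80.7, 61.9, 87.2 and 135 CPM (-0.36, SE 0.33). In colon, ST2+ libraries held 102, 59.7 and 80.8 CPM against 169, 97.7, 79.1, 168 and 170.3 CPM (-0.76, SE 0.37). Lungs gave -0.35 (SE 0.31) and skin -0.36 (SE 0.32). Over the 6 tissues, ST2+ was the lower in 24 of 27 pairs of libraries from 1 mouse.

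Ptger4 had counts in all 67 libraries and ranged from 55.7 to 386 CPM. Its means ran from 109 ± 68.7 CPM (SD, n = 5) in VAT ST2+ to 272 ± 87.1 CPM (SD, n = 5) in skin ST2-, and all 13 neighbours in that order differed by less than the larger SD. VAT ST2+ libraries held 227, 60.8, 81.8, 112 and 64.6 CPM and VAT ST2- libraries 263, 139.9, 149, 199.9 and 127 CPM. ST2+ was the lower in each of these 5 mice, although the groups overlapped, and the log2 fold change was -0.69 (SE 0.26). Without mouse 1, whose VAT ST2+ library held 227 CPM, the value was -0.95 (SE 0.26) and met the thresholds.

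In colon, Ptger4 was at 131, 144 and 145 CPM in ST2+ and at 291, 181, 235, 222 and 225 CPM in ST2- libraries, with no overlap and a log2 fold change of -0.72 (SE 0.31), which did not meet the thresholds. Spleen ran the other way, with 280.0, 222, 324, 246 and 253 CPM in ST2+ and 206, 185, 223, 197 and 194 CPM in ST2- libraries. ST2+ was the higher in 5 of 5 spleens, by a log2 fold change of 0.41 (SE 0.25), and the lowest ST2+ library was below the highest ST2- library. Blood, lungs and skin gave values between -0.33 and -0.25.

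Ptgir, the prostacyclin receptor, was low and uneven between mice. VAT ST2+ libraries held 42.1, 36.7, 77.7, 56.5 and 11.5 CPM, while VAT ST2- libraries held 13.3, 0, 0, 0 and 6.39 CPM, with 0 counts in mice 2, 3 and 4. All VAT ST2+ libraries came from 220 cells. VAT ST2- libraries came from 93 to 220 cells, with 220 in mouse 1 alone, and the part of cell number was not tested. ST2+ was the higher in 5 of 5 mice although the libraries overlapped, with a log2 fold change of 3.43 (SE 0.94), in the group whose macrophage and monocyte markers also had the higher median sum. Lungs ST2+ libraries, the highest group, held 123, 31.9, 86.5, 52.8 and 38.4 CPM against 33.6, 1.30, 4.95, 1.04 and 6.16 CPM, and the value was 2.83 (SE 0.90). The library of mouse 1 was the highest of both lung groups.

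In blood, Ptgir was at 7.98, 41.6, 21.7 and 10.8 CPM in ST2+ and at 0, 0.625, 6.82, 6.12 and 3.51 CPM in ST2- libraries, with no overlap (2.57, SE 0.95). The library at 41.6 CPM came from 55 cells. Platelet markers and macrophage and monocyte markers had higher median sums in blood ST2+ than in blood ST2-, and their part was not tested. In colon Ptgir was at 30.7, 27.3 and 18.9 against 13.6, 7.66, 7.13, 2.54 and 3.62 CPM, also with no overlap (1.89, SE 0.98). In skin it was at 10.2, 87.4, 18.6, 11.7 and 27.1 against 6.84, 5.39, 8.29, 5.59 and 11.1 CPM, where mouse 1 of ST2+ fell within the ST2- range (2.05, SE 0.89). Spleen had the smallest difference, 45.1, 21.6, 10.1, 13.9 and 29.3 against 0.374, 0.419, 16.5, 9.95 and 19.7 CPM (1.35, SE 0.86). Over all 6 tissues ST2+ was the higher in 26 of 27 pairs of libraries from 1 mouse, mouse 3 of spleen being the exception. These pairs use the same 5 mice again for each tissue and are not separate support. Ptgir means of all 6 ST2+ groups, 20.5 ± 15.2 CPM to 66.5 ± 38.0 CPM, stood above those of the 6 ST2- CD44hi groups, but each of the 13 neighbours in the order of 14 groups overlapped.

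Ptgdr2 had 59 counts in all, in 6 of 67 libraries. Skin ST2- CD44hi Tregs of mice 1, 2, 4 and 5 held 2.56, 6.74, 6.99 and 5.86 CPM (36 counts) and mouse 3 held 0. Skin ST2+ held 1 count, in mouse 3, and the ratio of ST2+ to ST2- was 0.0281 with an exact 95% counting interval of 0.000692 to 0.167. The remaining 22 counts were in lungs ST2- of mouse 1 (14.2 CPM), and the other 4 lung ST2- libraries held 0. Ccdc86, which shares 38.99% of the Ptgdr2 exon bases on the other strand, had counts in all libraries of all 14 groups, with group means of 23.3 to 56.2 CPM. Mast cell, basophil and eosinophil markers summed to at most 0.427 CPM in skin ST2- and to 0.647 CPM in lungs ST2- of mouse 1.

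Genes were called differentially expressed (DEGs) when their fold change was at least 1.5 and their Benjamini-Hochberg adjusted p at most 0.05 over 13173 tested genes. The 4 receptors that passed the filter gave 24 values of ST2+ against ST2- in 6 tissues, of which 5 met the thresholds with ST2+ higher and 1 with ST2+ lower. Over all tested genes and tissues together, 0.763% were called higher and 0.671% lower. The 5 were Ltb4r1 in blood, spleen, lungs and VAT and Ptgir in VAT, and the 1 was Ptger2 in VAT. By tissue, genes called in either direction were 4.07% of those tested in blood, 0.349% in spleen, 0.752% in lungs and 3.14% in VAT. In colon and skin none of the 4 receptors was called, and 0.0683% and 0.228% of all genes were. The VAT call of Ptgir was lost without mouse 2 (3.21, SE 0.99), mouse 3 (2.85, SE 1.07), mouse 4 (3.04, SE 1.09) or mouse 5 (3.90, SE 1.16) and in a fit of VAT alone (3.45, SE 1.11), and without mouse 1 the value was 4.72 (SE 0.93). In lungs Ptgir was called by DESeq2 (2.85, SE 0.81) and by voom with quality weights (3.75, SE 0.75), in a fit of lungs alone (2.84, SE 0.69) and without mouse 1 (3.90, SE 0.87), and in blood by DESeq2 (2.60, SE 0.89).

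Groups that did not overlap were counted in the same way. The libraries of the ST2+ and ST2- groups stood fully apart in 9 of the 24 values, 4 for Ltb4r1, 2 each for Ptger2 and Ptgir and 1 for Ptger4. Of all tested genes and tissues together, 3.61% did so. The receptors were listed with these values known, and nothing is read from either share.

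**Figure D3:**
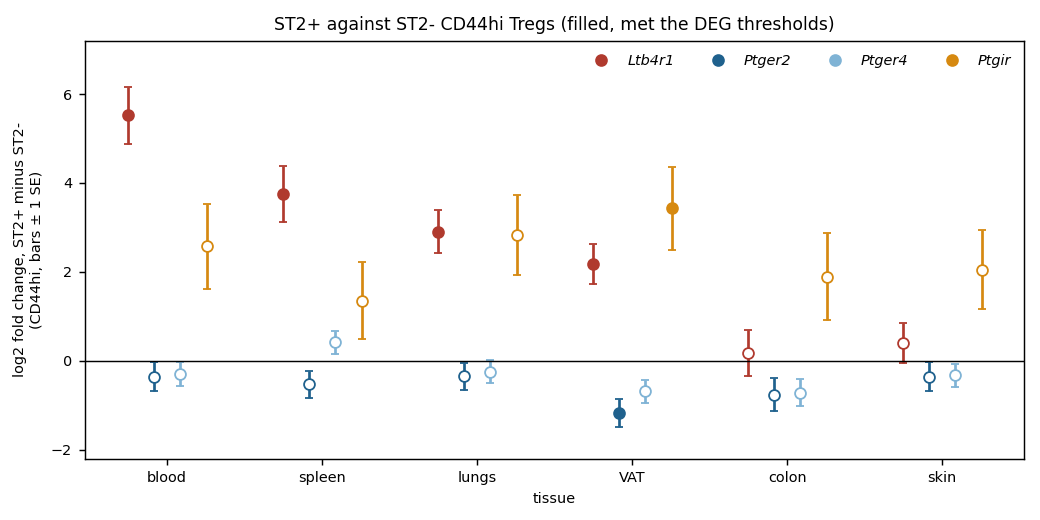
Log2 fold change of ST2+ against ST2- CD44hi Tregs (y axis, bars ± 1 SE) in 6 tissues (x axis) for the 4 receptors that passed the filter, filled where the DEG thresholds were met. Ltb4r1 runs from 5.52 in blood to 0.18 in colon, all 6 Ptgir values are above 0 with wide errors, and all 6 Ptger2 values are below 0.

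Effector and central ST2- Tregs were compared in spleen and lungs. Ptger2 was at 90.9, 48.8, 60.4, 58.4 and 24.8 CPM in spleen CD44lo CD62L+ libraries, all below the ST2- CD44hi libraries given above, and the log2 fold change of CD44hi over CD44lo was 2.08 (SE 0.32). In lungs it was at 158, 142, 78.4, 111 and 165 CPM in ST2- CD44hi and at 55.5, 63.8, 55.8, 35.2 and 93.7 CPM in CD44lo CD62L+ libraries. The lung groups overlapped, but CD44hi was the higher in 5 of 5 mice, with a log2 fold change of 1.10 (SE 0.31). The lung call was lost without mouse 1 (0.99, SE 0.34), mouse 2 (1.09, SE 0.37) or mouse 4 (1.01, SE 0.37).

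Ptger4 in CD44lo CD62L+ libraries was at 120.2, 141, 170.0, 87.8 and 65.2 CPM in spleen and 152, 161, 127, 55.7 and 108 CPM in lungs. Lungs ST2- CD44hi libraries held 237, 218, 327, 239.04 and 280.3 CPM. CD44hi Tregs did not overlap with central Tregs in either tissue and were higher by 0.77 (SE 0.26) in spleen and 1.11 (SE 0.26) in lungs on the log2 scale. The spleen value did not meet the thresholds, and did with each mouse as a block (0.79, SE 0.24), with DESeq2 (0.79, SE 0.26), with voom (0.82, SE 0.19) and in a fit of these groups alone (0.77, SE 0.19). Ptgir, unlike the other 3, had values of both signs. It was at 20.9, 17.1, 11.6, 14.5 and 14.4 CPM in spleen central Tregs, where the fitted value was -0.74 (SE 0.86), and at 0, 6.53, 15.5, 5.25 and 6.78 CPM in lung central Tregs (0.45, SE 0.88).

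Of the 8 values, 4 met the thresholds, all with CD44hi higher. These were Ltb4r1 in lungs, Ptger2 in both tissues and Ptger4 in lungs. Genes called in either direction were 4.97% of those tested in spleen and 5.56% in lungs, and over both tissues 4.59% were called higher and 0.676% lower. The groups stood apart in 4 of the 8 values, beside 8.26% of all genes. Ltb4r1 in lungs remained called without each mouse, and its fitted value, which rests on 1 count in the lower group, ranged from 6.55 (SE 1.10) without mouse 1 to 8.60 (SE 1.26) without mouse 4.

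Tissues were then set against spleen within ST2+ and within ST2- CD44hi Tregs. Lungs, VAT, colon and skin were digested with collagenase and spleen was not, so tissue and digestion cannot be told apart in these comparisons. All values of 1 population share the spleen libraries, so they are given side by side and not counted as separate support. Ltb4r1 in ST2+ Tregs was above spleen by 4.48 (SE 0.51) in VAT on the log2 scale, 2.83 (SE 0.48) in lungs, 2.57 (SE 0.52) in colon, 2.48 (SE 0.48) in skin and 2.24 (SE 0.49) in blood. Blood ST2+ was the only one of these groups whose libraries overlapped with spleen ST2+. In ST2- CD44hi Tregs the values were 6.15 (SE 0.63) in colon, 6.05 (SE 0.63) in VAT, 5.84 (SE 0.63) in skin and 3.68 (SE 0.64) in lungs. Blood ST2- overlapped with spleen ST2- (0.47, SE 0.85), and the other 4 groups did not.

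The size of these Ltb4r1 values turned on a few libraries, each the highest of its group. Mouse 5 held 16 of the 21 counts of spleen ST2-, and without it the ST2- values were 7.58 (SE 0.69) in colon, 7.56 (SE 0.69) in skin, 7.38 (SE 0.69) in VAT and 5.45 (SE 0.71) in lungs. Without mouse 1 the lung ST2- value was 3.08 (SE 0.69). Without mouse 4, which had the highest spleen ST2+ library, the ST2+ values were 5.08 (SE 0.60) in VAT and 3.41 (SE 0.62) in colon. All of them met the thresholds.

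Ptger2 ran the opposite way, and in each of the 47 pairs of libraries from 1 mouse the spleen library was the higher. These pairs use the same spleen libraries again for each tissue and are not separate support. In ST2+ Tregs the log2 fold change to spleen was -1.94 (SE 0.32) in VAT, -1.81 (SE 0.32) in skin, -1.20 (SE 0.33) in blood, -1.03 (SE 0.37) in colon and -0.67 (SE 0.31) in lungs. Skin ST2+ libraries held 72.9, 39.1, 22.3, 60.9 and 35.6 CPM and skin ST2- libraries 97.4, 32.4, 88.6, 38.4 and 40.5 CPM, all below every spleen library of their population. Of the 10 groups, blood ST2+ was the only one that overlapped with spleen. In ST2- CD44hi Tregs the values were -1.98 (SE 0.32) in skin, -1.37 (SE 0.31) in blood, -1.29 (SE 0.31) in VAT, -0.85 (SE 0.31) in lungs and -0.80 (SE 0.31) in colon. The thresholds were met in VAT, skin and blood of both populations. The blood ST2+ call was lost without mouse 2 (-1.10, SE 0.41), mouse 3 (-0.88, SE 0.34) or mouse 4 (-1.05, SE 0.41), and with all 70 libraries it was -0.92 (SE 0.32) and not called. With each mouse as a block, colon was called too, in ST2+ (-1.11, SE 0.35) and in ST2- (-0.84, SE 0.29), and so it was with voom (-1.05, SE 0.31, and -0.84, SE 0.20).

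Ptger4 was below spleen in ST2+ Tregs of VAT (-1.26, SE 0.26), blood (-0.99, SE 0.28) and colon (-0.92, SE 0.31), and these 3 met the thresholds. The colon call was lost without each of mice 1 to 5, with values from -0.85 (SE 0.33) without mouse 1 to -0.97 (SE 0.32) without mouse 2. The blood call was lost without mouse 2 (-1.06, SE 0.32), mouse 3 (-1.02, SE 0.34), mouse 4 (-1.01, SE 0.31) or mouse 5 (-0.87, SE 0.31). In ST2- CD44hi Tregs no tissue differed from spleen by the thresholds, and the values ran from -0.27 (SE 0.26) in blood to 0.46 (SE 0.26) in skin. None of the 10 Ptgir values met the thresholds. The highest was 1.49 (SE 0.85) in lungs ST2+ and the lowest -1.41 (SE 0.91) in blood ST2-, and all groups overlapped with spleen. Without mouse 1, whose VAT ST2- library was the only one of its group from 220 cells, VAT ST2- was called below spleen (-2.76, SE 0.88).

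Of these 40 values, 9 met the thresholds above spleen, all Ltb4r1, and 9 below it, 6 of Ptger2 and 3 of Ptger4. Over all tested genes and tissues together, 7.13% were called higher and 4.43% lower, and 14.2% stood apart from spleen, as did 19 of the 40 receptor values. Among ST2+ Tregs the share of genes called was 4.21% for blood, 4.91% for lungs, 11.3% for VAT, 10.4% for colon and 29.1% for skin. In ST2- CD44hi Tregs these shares were 3.58%, 4.13%, 5.97%, 11.1% and 30.9% in the same order. Leaving out skin ST2+ of mouse 4 gave 2.50 (SE 0.51) for Ltb4r1 and -1.93 (SE 0.35) for Ptger2 in skin ST2+. The macrophage markers of colon ST2+ also bear on its comparison with spleen, and their part was not tested.

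**Figure D4:**
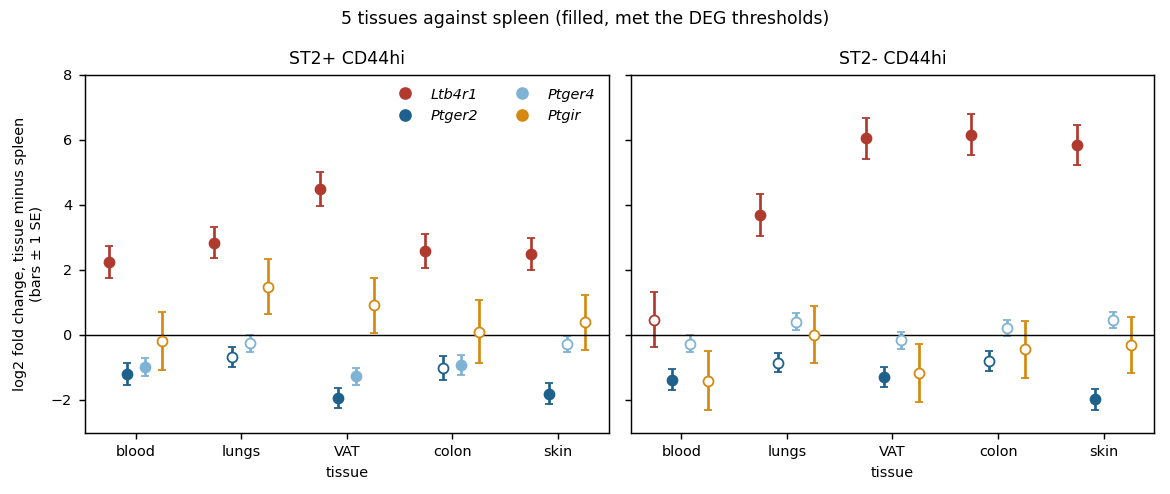
Log2 fold change of 5 tissues against spleen (y axis, bars ± 1 SE), in ST2+ CD44hi Tregs on the left and ST2- CD44hi Tregs on the right, filled where the DEG thresholds were met. Ltb4r1 reaches 4.48 in VAT ST2+ and 6.15 in colon ST2-, and every Ptger2 value lies below 0.

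The 4 receptors followed each other little. Over 67 libraries, Pearson's r of log2 CPM was 0.44 between Ptger2 and Ptger4 and 0.37 between Ltb4r1 and Ptgir, and lay between -0.22 and 0.12 for the other 4 pairs. With the group means taken out, all 6 lay between -0.25 and 0.21. The libraries share 5 mice and their depth, and these values are a description. Over the 14 group means, the tested genes most like Ltb4r1 were Anxa1 (r = 0.98), Serinc3 (r = 0.97) and Ctla2b (r = 0.96). Those most like Ptger2 were Glt28d2 (r = 0.95), Synpo (r = 0.93) and Slc7a10 (r = 0.91). For Ptger4 they were Alms1 (r = 0.86), Suds3 (r = 0.85) and Nt5e (r = 0.83), and for Ptgir Plcb3 (r = 0.88), Tmed8 (r = 0.81) and Cenpt (r = 0.81). Anxa1, an annexin, ran from a group mean of 0.0776 to 644 CPM, and Ltb4r1 from 0.0733 to 497 CPM. Serinc3 ran from 571 to 1407 CPM, Ctla2b from 0.181 to 15.7 CPM, Glt28d2 from 0 to 17.7 CPM and Suds3 from 64.6 to 105 CPM. Genes picked as the highest of all tested genes over 14 means have a high r by that choice, and nothing is read from them.

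The genes around these receptors were followed through 7 lists of 83 genes, of which 71 were tested. Between ST2+ and ST2- CD44hi Tregs, 18 of 426 values met the thresholds (9 higher, 9 lower), which is 4.23% beside 1.43% of all genes. Between CD44hi and CD44lo CD62L+ Tregs, 11 of 142 did (7.75%, all higher) beside 5.27%, and against spleen 113 of 710 (15.9%; 91 higher, 22 lower) beside 11.6%. The lists were chosen with earlier results of these data known. Their median log2 fold change of ST2+ against ST2- ran from -0.036 in skin to 0.129 in VAT, where the medians of all tested genes were 0 and -0.007.

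Among the 10 other eicosanoid receptors, 5 were tested. Cysltr1, a receptor for cysteinyl leukotrienes, was higher in ST2+ Tregs of blood, at 68.3 ± 7.36 against 2.87 ± 4.32 CPM (SD, n = 4 and 5), a log2 fold change of 4.57 (SE 0.79, edgeR adjusted p = 0.00013), which was 5.99 without mouse 4. It was also higher in VAT ST2+, at 121 ± 73.9 against 18.6 ± 16.4 CPM (SD, n = 5 and 5), a log2 fold change of 2.71 (SE 0.67, edgeR adjusted p = 0.011), though not without mouse 4 (2.35) or mouse 5 (2.85), and the macrophage and monocyte markers had the higher median sum in that group too. Like Ltb4r1 it was nearly absent from central Tregs, with 0 counts in spleen and 1 in lungs, against 131 and 151 counts in ST2- CD44hi Tregs. The spleen ratio was thus at least 42.7-fold, set by 3 counts over the group, and the lung ratio was 175-fold with an exact 95% counting interval of 31.0 to 6974. Cysltr2, the other cysteinyl leukotriene receptor, rose in CD44hi Tregs of lungs by 3.13 (SE 0.45, edgeR adjusted p = 4.3e-07) and of spleen by 1.97 (SE 0.42, edgeR adjusted p = 0.00097) on the log2 scale. Tbxa2r, the thromboxane receptor, fell in skin against spleen, with a log2 fold change of -4.25 (SE 0.56, edgeR adjusted p = 1e-08) in ST2- CD44hi Tregs, with 6.16 ± 6.63 against 126 ± 23.2 CPM (SD, n = 5 and 5). In skin ST2+ it had 3 counts, a ratio to spleen ST2+ of 0.00691 with an exact 95% counting interval of 0.00142 to 0.0203. The ST2- value was -5.08 without mouse 1. Tbxa2r was also called below spleen in colon ST2+ (-1.76) and VAT ST2- (-1.595). The colon call was lost without mouse 1, 2, 3 or 4 and the VAT call without mouse 2, 3 or 4. Between the skin populations, its 3 counts in ST2+ stood against 60 in ST2-, and this call was lost without mouse 1 (-2.74), mouse 2 (-3.86) or mouse 3 (-3.45).

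Enzymes of arachidonate release, prostanoid synthesis and leukotriene synthesis gave 1 call of 30 values, 1 of 54 and 2 of 42 between ST2+ and ST2- Tregs, beside 1.43% of all genes. Hpgds, the hematopoietic prostaglandin D synthase, was higher in VAT ST2+, at 42.2 ± 18.6 against 4.82 ± 4.20 CPM (SD, n = 5 and 5), a log2 fold change of 3.11 (SE 0.69, edgeR adjusted p = 0.0029), and remained called without each mouse. The macrophage and monocyte markers also summed higher in VAT ST2+ (median 187 against 61.5 CPM), and their part in the Hpgds value was not tested. Mgst2, which can make leukotriene C4, was lower in ST2+ Tregs of VAT, at 56.8 ± 17.9 against 109.6 ± 11.8 CPM (SD, n = 5 and 5), a log2 fold change of -0.95 (SE 0.22, edgeR adjusted p = 0.0042). The VAT call was lost without mouse 2 (-0.78). In blood it was at -0.80 (SE 0.23, edgeR adjusted p = 0.027) and was not called without mouse 1 (-0.58), mouse 3 (-0.75), mouse 4 (-0.88) or mouse 5 (-0.90). Lpcat2, which acylates lysophospholipids, had 134 counts in blood ST2+ and 2 in blood ST2-, a ratio of 74.6 with an exact 95% counting interval of 20.3 to 623. Its call was lost without mouse 3, and the fitted value, 5.78, was then 5.17, and 8.34 without mouse 2. The platelet markers had their highest sums in blood ST2+, and their part in the blood values was not tested. Against spleen, Mgst2 was lower in skin of both populations, with a log2 fold change of -2.35 (SE 0.23, edgeR adjusted p = 1.3e-12) in ST2- CD44hi Tregs. Lta4h, which makes leukotriene B4, the ligand of the Ltb4r1 product, had counts throughout and was called in skin ST2- alone, where it fell with a log2 fold change of -0.59 (SE 0.11, edgeR adjusted p = 2e-05), just past the 1.5-fold minimum. Without mouse 3, 4 or 5 it was at -0.57, -0.55 and -0.58 and no longer past it.

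Several enzymes were called in colon against spleen groups with no or few counts. Ptgs2, the inducible cyclooxygenase, was at 35.3 ± 38.1 against 0 ± 0 CPM (SD, n = 3 and 5) in colon against spleen ST2+ Tregs, at least 127-fold higher by the limit of 3 counts over the spleen group. Ptges, a prostaglandin E synthase, was at 25.8 ± 37.3 against 0 ± 0 CPM (SD, n = 3 and 5) there and at 49.3 ± 70.2 against 0 ± 0 CPM (SD, n = 5 and 5) in skin ST2+ against spleen ST2+. Pla2g4a, the cytosolic phospholipase A2 that frees arachidonic acid, had 277 counts in colon ST2+ and 1 in spleen ST2+. All 12 macrophage and monocyte markers had counts in colon ST2+, with the sums given above, and their part in these values was not tested. The SDs of Ptgs2 and Ptges were larger than their means. In colon ST2+, the Ptges call was lost without mouse 1 (6.16) or mouse 2 (8.76) and that of Pla2g4a without mouse 3 (8.11) or mouse 4 (8.86), fitted values that rest on 0 or 1 spleen count. Ptgs2 did not pass the filter without mouse 3 or mouse 4, and Ptges not without mouse 3.

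Inactivation and transport genes gave 0 calls by edgeR in 54 values between ST2+ and ST2- Tregs, beside 1.43% of all genes. Of these values, 3 had an unadjusted p under 0.05, and DESeq2 called 0 and voom with quality weights 3. The same list gave 12 calls in 90 values against spleen, 6 in each direction (13.3%, beside 11.6% of all genes). The share against spleen is near that background. Ptgr2, a prostaglandin reductase, fell in skin, with log2 fold changes of -2.37 (SE 0.41, edgeR adjusted p = 5.8e-06) in ST2+ and -1.85 (SE 0.40, edgeR adjusted p = 0.00022) in ST2- CD44hi Tregs. Abcc4, which exports prostaglandins and cyclic AMP, fell in skin ST2+ with a log2 fold change of -2.99 (SE 0.54, edgeR adjusted p = 1.2e-05).

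The list of G proteins and receptor desensitisation had 24 values called higher and 1 lower of 150 against spleen (16.7%, beside 11.6% of all genes), 4 of 30 called higher between CD44hi and central Tregs (13.3%, beside 5.27%) and 3 of 90 called higher between ST2+ and ST2- Tregs (3.33%, beside 1.43%). Gna15, which couples many chemoattractant receptors to phospholipase C, was higher in ST2+ Tregs of blood, at 258 ± 13.8 against 81.7 ± 17.1 CPM (SD, n = 4 and 5), a log2 fold change of 1.68 (SE 0.24, edgeR adjusted p = 3.4e-06), and of spleen, by 1.28 (SE 0.24, edgeR adjusted p = 0.0012). It also rose in CD44hi over central Tregs, by 3.05 (SE 0.26, edgeR adjusted p = 7.5e-14) in lungs and 2.24 (SE 0.27, edgeR adjusted p = 4.4e-09) in spleen. None of these 4 calls was lost when any single mouse was left out. Gna13 was called above spleen in 9 of the 10 comparisons, blood ST2- being the exception, and rose most in skin, by 2.51 (SE 0.15, edgeR adjusted p = 6.2e-21) in ST2+ Tregs.

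The cyclic AMP list covers what lies downstream of the Gs-coupled receptors of Ptger2, Ptger4 and Ptgir. Between ST2+ and ST2- Tregs, 2 of its 126 values were called higher and 6 lower, beside 0.763% and 0.671% of all genes. Those called lower were 3 phosphodiesterases, which break down cyclic AMP. Pde4b was lower in ST2+ Tregs of blood, at 173 ± 10.1 against 370.2 ± 33.0 CPM (SD, n = 4 and 5), a log2 fold change of -1.08 (SE 0.20, edgeR adjusted p = 0.00034), of VAT (-0.87, SE 0.19, edgeR adjusted p = 0.0024) and of lungs (-0.80, SE 0.19, edgeR adjusted p = 0.014). The VAT call was lost without mouse 3 (-0.60) and the lung call without mouse 1, 2 or 4 (-0.81, -0.78 and -0.77). Pde7a was called in blood (-2.39, SE 0.59, edgeR adjusted p = 0.0084), though not without mouse 3 (-2.17) or mouse 5 (-2.07). In VAT it was at -1.76 (SE 0.52, edgeR adjusted p = 0.041), which was not called without mouse 1, 2, 3 or 5 (-1.55, -1.31, -1.76 and -1.42) and was -3.36 without mouse 4. Pde4d was called in VAT (-1.02, SE 0.27, edgeR adjusted p = 0.019), though not without mouse 2, 4 or 5 (-0.78, -1.14 and -0.77).

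Crem, which encodes cyclic AMP responsive repressors and activators, was higher in ST2+ Tregs of blood (1.32, SE 0.27, edgeR adjusted p = 0.0013) and spleen (1.20, SE 0.25, edgeR adjusted p = 0.0098), the spleen call being lost without mouse 3 (1.15). Against spleen it rose in lungs, VAT, colon and skin of both populations, up to 1106 ± 167 against 51.3 ± 10.9 CPM (SD, n = 5 and 5), a log2 fold change of 4.46 (SE 0.28, edgeR adjusted p = 3.9e-20). These are the tissues digested with collagenase, and the part of digestion was not tested. Pde4d was called above spleen in 8 of 10 comparisons, by 3.68 (SE 0.30, edgeR adjusted p = 1.1e-15) in skin ST2- CD44hi Tregs. Adcy7, an adenylyl cyclase, fell in skin, with a log2 fold change of -1.36 (SE 0.18, edgeR adjusted p = 1.9e-08) in ST2+ Tregs. Over the 10 comparisons with spleen, 37 of the 210 values of the list were called higher and 5 lower, beside 7.13% and 4.43% of all genes. In skin, 29.1% (ST2+) and 30.9% (ST2-) of all genes were called against spleen.

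**Figure D5:**
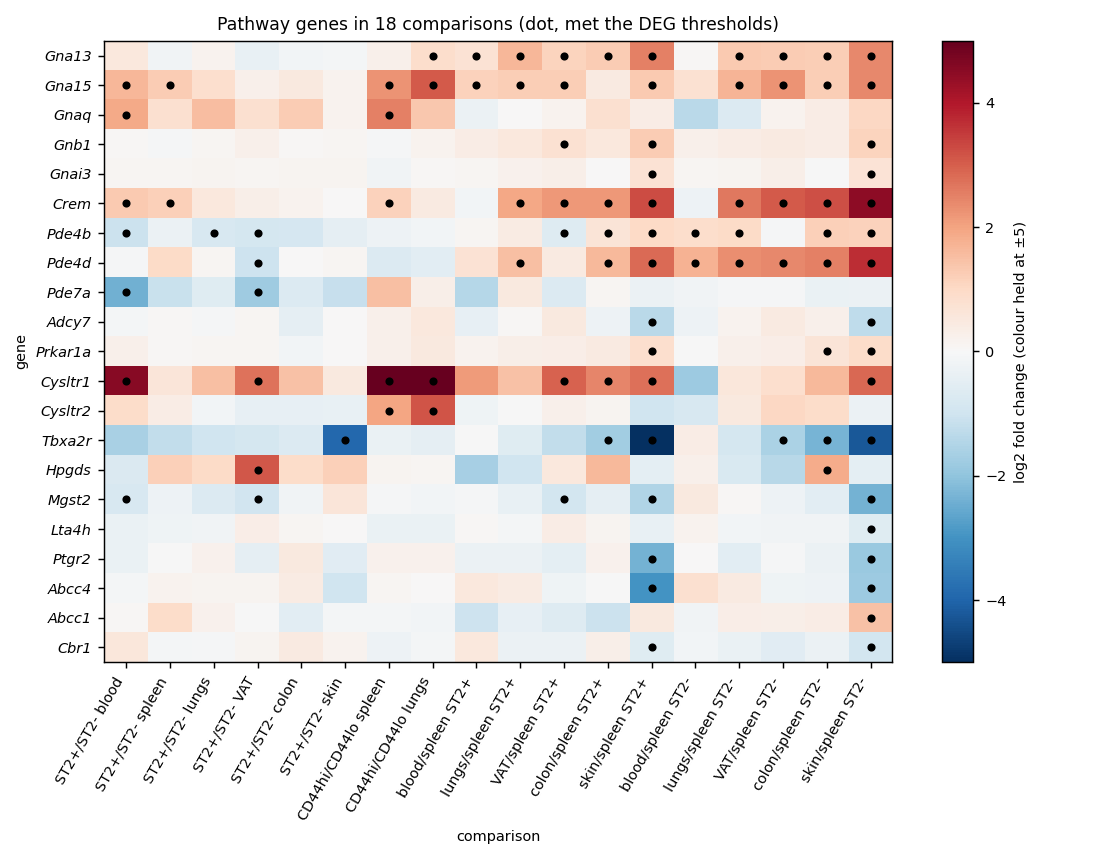
Log2 fold change (colour, blue lower and red higher, held at 5 in either direction) fitted for 21 genes of the lists (y axis) in 18 comparisons (x axis), with a dot where the DEG thresholds were met. Crem, Pde4d, Gna13 and Gna15 carry 8 or 9 dots each in the 10 comparisons with spleen, and between ST2+ and ST2- Tregs Cysltr1 carries a dot in blood and in VAT.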

How the data were processed

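RNA of sorted Tregs was amplified with the SMART-Seq v4 kit, made into NexteraXT libraries and sequenced as single reads of 58 bases. Per the study's methods and the submitters' processing notes, the authors aligned reads with STAR to GRCm38 and deposited raw counts per Ensembl 91 gene from HTSeq-count 0.4.1, with no normalization. For the counting mode and use of strand, the sources used here give nothing. The table held 70 libraries, and 0 columns of it were left unused. From the deposited counts, libraries of at most 1000000 counts were left out, which kept 67. Protein-coding genes at 1 CPM or more in at least 10% of these (7 libraries) were tested, 13173 genes in all.

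CPM were counts per 1000000 counts of the TMM-scaled library total. Counts were fitted with edgeR 4.0.16 (quasi-likelihood F-test, two-sided, R 4.3.3) over all 14 groups with no mouse term. The SEs of edgeR values are approximate, being the absolute log2 fold change divided by the square root of the F statistic. For a gene to count as a DEG, its fold change had to reach 1.5 and its p, adjusted by Benjamini-Hochberg over all tested genes within each comparison, could not exceed 0.05. Same-numbered libraries came from the same mouse. Their deviations correlated with a mean r of 0.116 over 27 pairs (lowest -0.00224, 14 above 0.1, 6515 genes), and a fit with the mouse as a block was an alternative. DESeq2 1.42.0, limma 3.58.1 (voom with quality weights), other scaling, other filters, all 70 libraries, 2-group fits and each mouse left out were the others. Leaving out colon ST2+ and skin ST2+ of mouse 4 was chosen after seeing the data.

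The receptors and lists were chosen with earlier results of these data known. The text names pathway genes that met the thresholds, by rank of adjusted p within each list and family of comparisons. Counting intervals were exact at 95%, a count of 0 was read as up to 3 counts, and both cover counting error only. Of 129 pairs of libraries within groups, 0 were identical. On data simulated for VAT (ST2+ against ST2-, 13173 genes), 28 of 100 genes changed 2-fold and 49 of 100 changed 4-fold were called, beside 2 of 12973 unchanged genes. Promoters came from RefSeq (GRCm38.p6) and matched 5 of the 6 receptors.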

Additional observations from a re-analysis of the deposited data

Results flagged for a closer look

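In 13 of the 61 groups of 4 or 5 libraries with receptor counts, 1 library lay far from the others by Dixon's 95% criterion, where chance gives about 1 in 20 groups of measured values. That rate does not apply where 1 library alone had counts, since such a group meets the criterion by construction, as for Ltb4r1 in both CD44lo CD62L+ groups, Ltb4r2 in VAT and in skin ST2-, and Ptgdr2. Ltb4r1 was at 665 CPM in VAT ST2+ of mouse 5, where the next library held 487 CPM, and at 10.5 CPM in blood ST2- of mouse 5, where the next held 1.46 CPM. It was at 0.366 CPM in 1 spleen and at 0.525 CPM in 1 lung CD44lo CD62L+ library, each a single count with 0 in the other 4. Ltb4r2 was at 1.84 CPM in VAT ST2+, 2.42 CPM in VAT ST2-, 3.98 CPM in colon ST2- and 0.638 CPM in skin ST2- in 1 library each. Ptger2 was lowest, at 83.3 CPM, in lungs ST2+ of mouse 1, and the next library held 105 CPM. Ptgir was at 87.4 CPM in skin ST2+ of mouse 2, with the next library at 27.1 CPM, and at 33.6 CPM in lungs ST2- of mouse 1, with the next at 6.16 CPM. Ptgdr2 was at 14.2 CPM in lungs ST2- of mouse 1 and at 0.619 CPM in skin ST2+ of mouse 3, with 0 in the other libraries of both groups.

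Ptger4 was higher in the ST2+ than in the ST2- library of every mouse in spleen, with a log2 fold change of 0.41. In VAT (-0.69), colon (-0.72) and skin (-0.33) it was lower in the ST2+ library of every mouse that had both. The difference between spleen and these tissues was not tested.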

How the results depend on the processing

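The counts of receptor values past the thresholds (6 of 24, 4 of 8 and 18 of 40) stayed within 1.5 times under the alternatives run. Leaving out each mouse in turn gave 4 to 8, 3 to 4 and 15 to 18 calls for them, and 12 to 14, 8 to 10 and 92 to 106 for the pathway lists. Pathway calls between ST2+ and ST2- Tregs went from 18 to 33 with voom and quality weights and to 10 with 2-group fits, and those between CD44hi and CD44lo CD62L+ Tregs from 11 to 20 with voom. The cause was not tested. With the mouse as a block, the numbers called were 6, 5 and 20 for the receptors and 20, 11 and 120 for the pathway lists. The block ended the pathway calls of Tbxa2r in skin (ST2+ against ST2-) and Ptgs2 in skin ST2- against spleen, and no receptor call. Without colon ST2+ and skin ST2+ of mouse 4, receptor calls were 6 of 20, 4 of 8 and 16 of 36. Under each of 13 settings that kept these groups, 68 to 72 of 72 receptor values kept their sign, and no called value changed it. Ltb4r2 and Ptgdr2 had too few counts for a fitted difference, and the fitted Ltb4r1 differences against spleen ST2-, blood ST2- and central Tregs, groups with few counts, are imprecise in size. P-values reflect 5 mice of 1 strain and sex.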

Other observations

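The 3 libraries left out for low totals also had receptor counts. Blood ST2+ of mouse 1, with 488666 counts in all, held 80 counts of Ptger2 (128 CPM), 22 of Ptger4 (35.3 CPM), 4 of Ptgir (6.41 CPM) and 0 of Ltb4r1, whereas the 4 blood ST2+ libraries kept held 45.8 to 169.9 CPM of Ltb4r1. Colon ST2+ of mouse 5, with 62333 counts, held 15 of Ltb4r1 (267 CPM), 9 of Ptger4 (160.2 CPM) and 4 of Ptger2 (71.2 CPM). Colon ST2+ of mouse 2 held 3582 counts, 4 of them of Ptger4.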
